A study of Mus musculus with 6 samples.

Results

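Solute carriers are the membrane proteins that move amino acids, sugars, organic anions, metals and other small solutes into and out of cells and organelles, and 150 of their genes were read on liver arrays of LIRKO and Flox mice. The members are all genes whose symbol, alone on its probe set in the platform annotation, begins with Slc and a number or with Slco and a number, except 4 that were left out by name. They are 150 of the 8251 genes read this way, and 182 of the 12422 probe sets tested. A probe set is a group of short oligonucleotides that together read 1 transcript, and where a gene had several, the one that was brightest over the 6 arrays stands for it. Members were put in substrate classes by family number and symbol, also where a member's own substrate is not known. Of them, 28 were classed under amino acids and their derivatives, 8 under sugars, 15 under organic anions and 19 under the mitochondrial carrier family. The other 80 were classed under organic cations, metals, inorganic ions, fatty acids, nucleosides, vitamins or nucleotide sugars, or could not be put in a class. A few of these, such as *Slc9a3r1*, bear a carrier's name but encode a scaffold protein and not a transporter.

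Liver Insulin Receptor Knockout (LIRKO) mice carried floxed insulin receptor alleles (IR flox/flox) and Cre recombinase (albumin:CRE +) under the albumin promoter, which is active in hepatocytes. Their Flox littermates had the same floxed alleles and no Cre (albumin:CRE -). All were non-fasted males on a normal chow diet, 2 to 3 months old by the labels, on a mixed genetic background, and each array held liver RNA pooled from 2 to 3 mice. There were 3 Flox and 3 LIRKO arrays, so the p-values measure how pools of mice varied, which may in part be technical. Values are log2 signals that the authors obtained by robust multichip averaging (RMA), and a difference of 1 is a 2-fold difference in signal. The question was which genes differ in liver that cannot respond to insulin.

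In hepatocytes, carriers of the plasma membrane set which nutrients enter from portal blood, and carriers of the SLC25 family connect the cytosol with the mitochondrial matrix. Amino acids arrive through sodium-coupled carriers and exchangers and feed gluconeogenesis and urea synthesis. Glucose crosses the sinusoidal membrane in both directions through GLUT2, which does not need insulin. Citrate leaves mitochondria through its own carrier and supplies acetyl groups for fatty acid and sterol synthesis. Organic anion carriers take up bile acids, steroid conjugates and drugs.

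Some features of the arrays touch every result below. The *Insr* probe set read 5.45, 5.22 and 5.38 on the Flox arrays and 5.37, 5.99 and 6.06 on LIRKO 1, 2 and 3 (adjusted p = 0.245 by limma), and its place relative to the deletion was not determined. Hepatocyte markers, of which 7 of 8 were measured, averaged 12.81 to 12.88 on the Flox arrays and 11.85 to 12.96 on the LIRKO arrays. The 12.96 was that of LIRKO 1. None of 37 measured markers of 8 cell types passed an adjusted p of 0.05 in limma. The 3 measured markers of red blood cell precursors averaged 9.21 to 9.32 on Flox, 8.93 on LIRKO 1 and 7.82 at the lowest, and the 3 of exocrine pancreas averaged 7.61 to 8.65 on Flox and 6.93 to 7.64 on LIRKO, and their part in the results was not tested. Fewer cells of a type, less RNA per cell and, for bright markers, the shift with signal level described next cannot be told apart in whole liver.

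LIRKO 2 and LIRKO 3 stood apart from the other 4 arrays in a way that depended on signal level. In the 1243 probe sets that were brightest on the Flox arrays, the top decile, the median difference from Flox was -1.09 for LIRKO 2 and -0.89 for LIRKO 3, but -0.01 for LIRKO 1. In the 1242 dimmest it was 0.23, 0.15 and -0.03. Of the 150 solute carrier genes, 21 lay in the brightest decile, and all 21 were below Flox on LIRKO 2, 20 on LIRKO 3 and 13 on LIRKO 1. Their median difference was -0.13 for LIRKO 1, -1.35 for LIRKO 2 and -1.30 for LIRKO 3. Of the 63 members at or below the median Flox level of all probe sets, 45 were higher and 18 lower over the 3 LIRKO arrays. Of the 87 above that level, 35 were higher and 52 lower. Differences of bright or dim carrier genes over all 3 LIRKO arrays can therefore not be told apart from this shift. LIRKO 1 is given alone beside them.

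**Figure D1:**
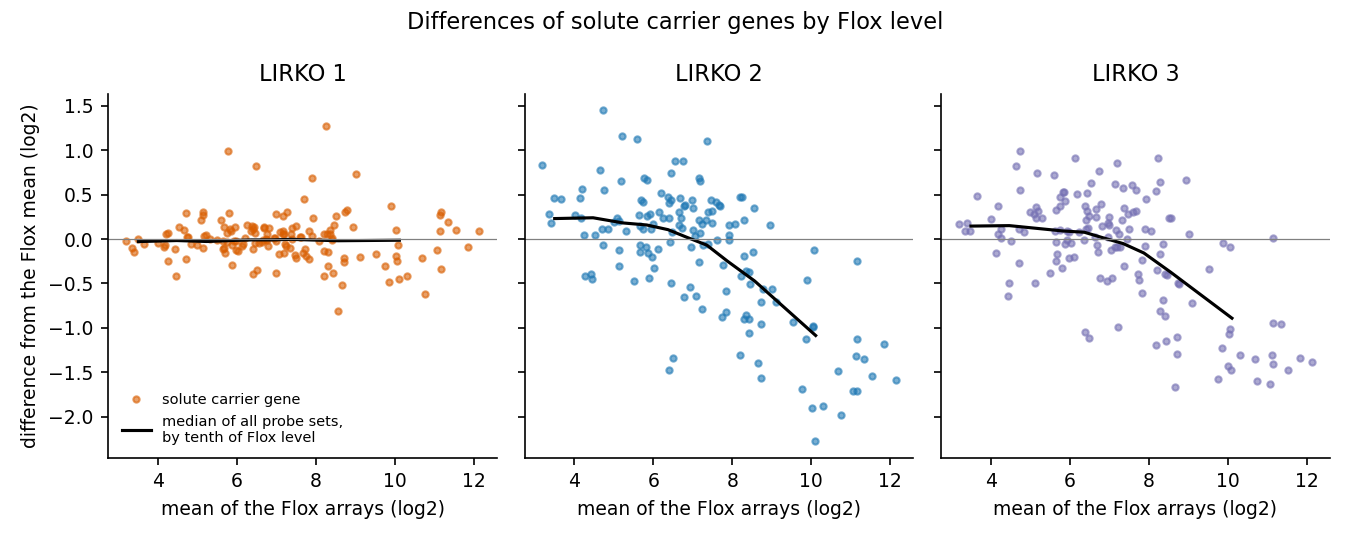
Log2 distance of a LIRKO array from the Flox mean (vertical axis) against that mean (log2, horizontal axis) for the 150 solute carrier genes, with 1 panel for each LIRKO array; points are genes and the black line is the median of all probe sets in each decile of Flox level. The line drops to -1.09 on LIRKO 2 and -0.89 on LIRKO 3 at high level and stays near 0 on LIRKO 1. The carriers drop with it in the brightest decile. In deciles 5 to 8 of Flox level their medians lie above it on LIRKO 2 and LIRKO 3.

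No solute carrier gene passed an adjusted p of 0.05 in limma, where 0.129% of all probe sets and 0.121% of all genes passed. The lowest adjusted p among the members was 0.237. At an unadjusted p under 0.05, 12 members (8%) lay higher and 24 (16%) lay lower in LIRKO liver, against 7.13% and 15.6% of all 8251 genes, or 22.7% in either direction. The unequal variance t-test of the methods gave 9 members at an unadjusted p under 0.05 and 0 after adjustment. The family as a whole was centred near 0, with a median log2 difference of 0.05 over the 3 LIRKO arrays and -0.01 on LIRKO 1, against -0.01 and -0.01 over all genes. The members ranged from -1.40, for *Slc25a1*, to 0.89, for *Slc38a2*, and the median standard error of a difference was 0.169. The calls turned on LIRKO 1. Without it, 75 members (50%) passed, 29 higher and 46 lower. The share among carriers was near the 49.1% of all probe sets. For this setting the share of all genes by brightest probe set was not computed, nor were background shares by direction.

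Every LIRKO array lay beyond every Flox array on the same side for 46 of the 150 members, 20 of them higher and 26 lower. That is 30.7% of the members, against 26.3% of all genes, and by direction 13.3% higher and 17.3% lower against 9.65% and 16.7%. On LIRKO 1 alone, 5 members were at least 0.5 above the Flox mean and 3 at least 0.5 below it, where 2.47% and 1.5% of all genes were that far above or below. The 5 were *Slc38a2*, *Slc25a4*, *Slc16a7*, *Slc7a2* and *Slc25a51*, and the 3 were *Slc3a1*, *Slc25a1* and *Slc23a3*. Of these 8, *Slc3a1*, *Slc25a51* and *Slc16a7* were outside the rule for named genes and were chosen after their values were seen.

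**Figure D2:**
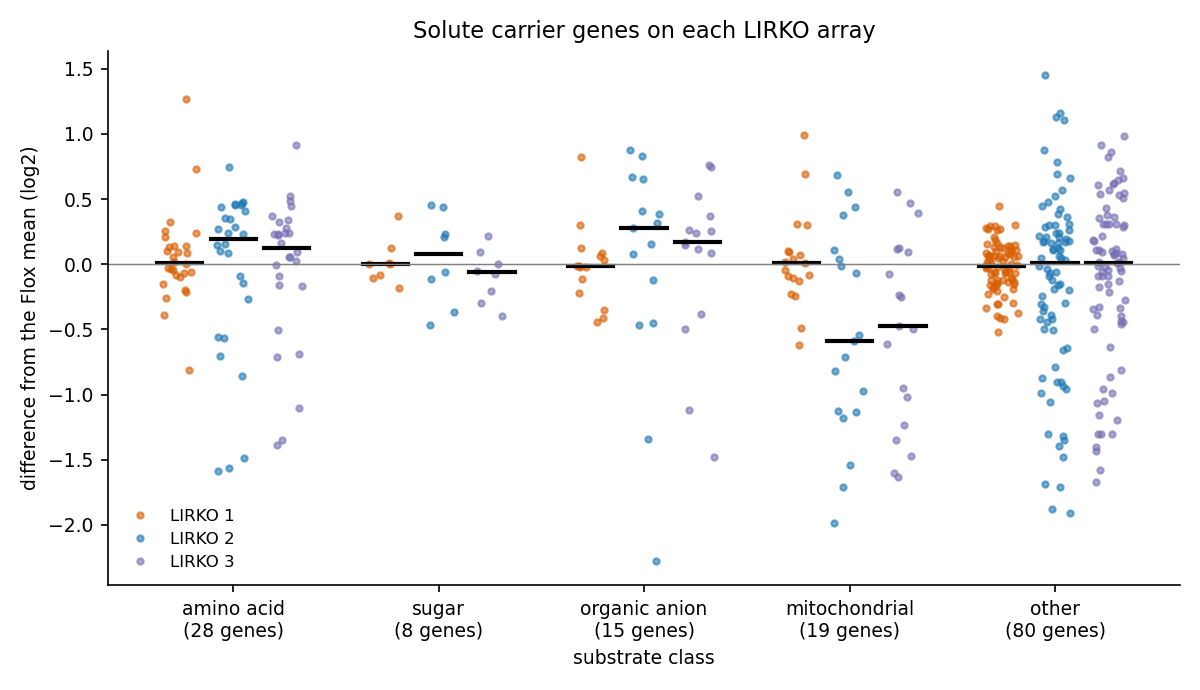
Log2 distance from the Flox mean (vertical axis) for each solute carrier gene by substrate class (horizontal axis); colours are the 3 LIRKO arrays, each point is 1 gene and black bars are medians. The mitochondrial class has medians of 0.01, -0.59 and -0.47 on LIRKO 1, 2 and 3, and on LIRKO 1 the medians of all classes lie within 0.02 of 0.

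Among the 19 mitochondrial carriers, the citrate carrier read lower and an adenine nucleotide carrier read higher on every LIRKO array than on every Flox array. The groups did not overlap for 9 of the 19 (47.4%, against 26.3% of all genes). Of these, 3 were higher and 6 lower, or 15.8% and 31.6% of the class, against 9.65% and 16.7% of all genes. The class had the lowest median of the 4 classes, -0.33, with 7 genes above 0 (36.8%, against 48.3% of all genes) and 12 below. LIRKO 1 gave a class median of 0.01, LIRKO 2 of -0.59 and LIRKO 3 of -0.47. On LIRKO 1, 10 of the class were above the Flox mean and 9 below, against 3840 and 4411 of all genes. Within the class the values differed with signal level. The 7 members in the brightest decile had a median of -0.95 (-0.13 on LIRKO 1), and the other 12 had a median of 0.08 (0.03 on LIRKO 1). After cyclic loess between arrays the class median was -0.07. At an unadjusted p under 0.05, 5 of the 19 (26.3%) were lower and 1 (5.26%) was higher, against 15.6% and 7.13% of all genes.

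*Slc25a1* encodes the citrate carrier, which exports citrate for fatty acid and sterol synthesis. It read 10.91, 10.56 and 10.79 on the Flox arrays and 10.13, 8.77 and 9.15 on LIRKO 1, 2 and 3. The 3 LIRKO values were below all 3 Flox values, LIRKO 1 nearest to them. The log2 difference was -1.40 (standard error 0.34, adjusted p = 0.237), and it was -0.62 on LIRKO 1 and -0.82 after cyclic loess (adjusted p = 0.107). A second, dimmer probe set of the gene had a difference of -1.04 (adjusted p = 0.237).

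*Slc25a4* encodes ANT1, which exchanges ADP for ATP across the inner membrane and is the form typical of heart and muscle. It read 5.58, 5.94 and 5.76 on Flox and 6.75, 6.45 and 6.23 on LIRKO 1, 2 and 3. The groups did not overlap, and here LIRKO 1 was the highest array. The log2 difference was 0.72 (standard error 0.17, adjusted p = 0.237), with 1.00 on LIRKO 1. LIRKO 1 is 1 array without a replicate, so its difference holds no measure of how LIRKO pools varied. *Slc25a5*, which encodes the widespread form ANT2 and was named after its values were seen, had a difference of -0.30 on its brightest probe set (adjusted p = 0.47) and of 0.30 on LIRKO 1. Its other probe sets had differences of -0.28 and -0.06, with -0.03 and -0.09 on LIRKO 1.

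The promoters of these 2 genes and of *Slc38a2*, the amino acid carrier described next, are shown because their differences were the largest of their direction in the mitochondrial or amino acid class. The windows of 300 bases around the start are from RefSeq on GRCm38.p6, all 3 on the minus strand, at chr16:17928170-17928469 for *Slc25a1*, chr8:46211013-46211312 for *Slc25a4* and chr15:96699679-96699978 for *Slc38a2*. Each is written 5′ to 3′, and capitals mark CCAAT boxes (CCAAT) and GC boxes (GGGCGG) on either strand, which bind the general factors NF-Y and Sp1.
Slc25a1: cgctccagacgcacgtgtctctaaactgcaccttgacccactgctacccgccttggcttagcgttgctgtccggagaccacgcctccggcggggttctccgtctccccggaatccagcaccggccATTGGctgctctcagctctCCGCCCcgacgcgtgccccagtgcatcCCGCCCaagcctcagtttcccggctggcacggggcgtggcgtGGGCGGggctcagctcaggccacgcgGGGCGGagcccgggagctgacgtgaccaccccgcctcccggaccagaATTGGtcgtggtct
Slc25a4: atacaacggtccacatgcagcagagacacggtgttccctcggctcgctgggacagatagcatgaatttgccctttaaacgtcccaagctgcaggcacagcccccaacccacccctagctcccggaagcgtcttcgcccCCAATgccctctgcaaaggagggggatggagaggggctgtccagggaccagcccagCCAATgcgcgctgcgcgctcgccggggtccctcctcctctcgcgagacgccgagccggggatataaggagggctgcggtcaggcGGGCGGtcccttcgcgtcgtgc
Slc38a2: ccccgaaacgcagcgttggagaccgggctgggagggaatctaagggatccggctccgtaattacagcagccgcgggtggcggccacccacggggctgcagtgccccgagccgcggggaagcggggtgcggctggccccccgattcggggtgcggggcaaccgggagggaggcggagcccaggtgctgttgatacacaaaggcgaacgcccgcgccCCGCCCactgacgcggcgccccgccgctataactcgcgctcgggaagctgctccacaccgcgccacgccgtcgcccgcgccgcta

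The *Slc25a1* window holds 2 CCAAT boxes and 4 GC boxes, that of *Slc25a4* 2 and 1, and that of *Slc38a2* 0 and 1, with no overlap among them. Of 32851 such windows of mouse genes, 37.4% hold a CCAAT box and 35.7% a GC box, against 32% and 62.1% of the 169 windows found for 121 of the 150 members. None of the 3 windows holds a sterol regulatory element (TCACNCCAC, in 1.24% of all windows), a FoxO site (GTAAACA, in 3.65%) or an amino acid response element (TGATGNAA, in 3.97%) on either strand. These matches describe the letters of the windows only.

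Other bright carriers of this family lay lower over the 3 LIRKO arrays, where the top decile of all probe sets had medians of -0.01, -1.09 and -0.89 on LIRKO 1, 2 and 3. *Slc25a10*, the dicarboxylate carrier, read 10.10, 10.09 and 9.95 on Flox and 9.81, 9.07 and 9.03 on LIRKO 1, 2 and 3. The LIRKO arrays lay below the Flox arrays, with LIRKO 1 only just so, and the difference was -0.74 (standard error 0.22, adjusted p = 0.237), or -0.24 on LIRKO 1. *Slc25a17*, a family member that carries cofactors into peroxisomes and not mitochondria, read 9.87, 9.97 and 9.74 on Flox and 9.37, 8.73 and 8.63 on LIRKO. Its difference was -0.95 (standard error 0.21, adjusted p = 0.237), and LIRKO 1, at -0.49, was also below Flox. *Slc25a15*, which carries ornithine for the urea cycle, read 11.38, 11.01 and 11.10 on Flox and 11.47, 10.03 and 10.21 on LIRKO. Here LIRKO 1 was above the Flox arrays and the other 2 below, and the difference was -0.59 (adjusted p = 0.339).

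*Slc25a39*, *Slc25a47* and *Slc25a25*, of the brightest decile and named after their values were seen, differed from the Flox mean by -0.13 to 0.10 on LIRKO 1. *Slc25a39*, which brings glutathione into mitochondria, had a difference of -1.16 (adjusted p = 0.237). *Slc25a47*, a carrier found mainly in liver, had -0.97 (adjusted p = 0.244). *Slc25a25*, which exchanges ATP-magnesium for phosphate, had -0.87 (adjusted p = 0.237). Outside that decile, *Slc25a51*, which carries NAD+ into mitochondria, read 8.07, 7.69 and 7.98 on Flox, 8.60 on LIRKO 1 and 7.90 and 7.84 on LIRKO 2 and 3, so that only LIRKO 1 was outside the Flox range. *Slc25a13*, the aspartate-glutamate carrier, was not analysed here.

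Of the 28 amino acid carriers, 18 (64.3%) were above 0 and 10 below, against 48.3% of all genes above 0. Their median log2 difference was 0.09, and none passed in limma. LIRKO 1 gave a median of 0.01, LIRKO 2 of 0.19 and LIRKO 3 of 0.13. On LIRKO 1, 15 were above the Flox mean and 13 below. The groups did not overlap for 7 of the 28 (25%, against 26.3% of all genes), of which 4 were higher and 3 lower in LIRKO liver. *Slc38a2* encodes SNAT2, a sodium-coupled carrier of small neutral amino acids that cells raise when amino acids run short. It read 8.52, 7.64 and 8.57 on Flox and 9.51, 8.72 and 9.16 on LIRKO 1, 2 and 3. All LIRKO arrays were above the Flox arrays, though Flox 2 lay far below the other Flox arrays. The difference was 0.89 (standard error 0.31, adjusted p = 0.237), and the 1.27 of LIRKO 1 was the largest of any member on that array. It was 1.19 after cyclic loess (adjusted p = 0.168). Of its 3 other probe sets, which were dimmer, a pair had differences of 0.86 and 0.86 but only 0.16 and 0.16 on LIRKO 1, and the dimmest had -0.07.

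Several other amino acid carriers differed between the LIRKO arrays. *Slc7a2* encodes CAT2, which carries arginine and other cationic amino acids. It read 8.85, 9.01 and 9.19 on Flox and 9.75, 8.46 and 9.07 on LIRKO 1, 2 and 3. LIRKO 1 was above, LIRKO 2 below and LIRKO 3 within the Flox range, for a difference of 0.08 (standard error 0.31, adjusted p = 0.883). *Slc3a1*, which encodes the heavy chain of the cystine and dibasic amino acid exchanger, went the other way. It read 8.73, 8.59 and 8.34 on Flox and 7.75 on LIRKO 1, but 8.91 and 8.79 on LIRKO 2 and 3. Its difference was -0.81 on LIRKO 1 and -0.07 over all 3 (adjusted p = 0.889). *Slc3a2*, the heavy chain of the exchangers for large neutral amino acids, read 8.78, 8.87 and 8.68 on Flox, 9.10 on LIRKO 1 and 8.21 and 8.27 on LIRKO 2 and 3, a difference of -0.25 (adjusted p = 0.528). *Slc38a4*, a neutral amino acid carrier abundant in liver and named after its values were seen, had a difference of 0.09 on LIRKO 1, -1.59 on LIRKO 2 and -1.38 on LIRKO 3, and of -0.96 over all of them (adjusted p = 0.242).

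The amino acid carriers with the smallest p besides *Slc38a2* were all lower. *Slc6a13*, a carrier of GABA and taurine in hepatocytes, read 10.77, 10.68 and 10.61 on Flox and 10.48, 9.21 and 9.34 on LIRKO, a difference of -1.01 (standard error 0.33, adjusted p = 0.237). *Slc6a9*, the glycine carrier GlyT1, read 9.10, 9.24 and 8.99 on Flox and 8.91, 8.40 and 8.39 on LIRKO, a difference of -0.54 (standard error 0.17, adjusted p = 0.237). *Slc38a10*, a relative of SNAT2, read 8.94, 8.60 and 8.63 on Flox and 8.46, 7.16 and 7.62 on LIRKO, a difference of -0.97 (standard error 0.32, adjusted p = 0.237). Each of these read lower on every LIRKO array than on any Flox array, and the differences on LIRKO 1 were -0.21, -0.20 and -0.26. A dimmer probe set of *Slc38a10*, with a Flox mean of 2.98, had a difference of 0.15, and of 0.03 on LIRKO 1. *Slc1a5*, the glutamine carrier ASCT2, had a difference of 0.11 (adjusted p = 0.553).

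Sugar carriers showed the smallest differences of the 4 classes. For none of the 8 did the groups separate, none had an unadjusted p under 0.05, and their differences ran from -0.25 to 0.18 with a median of 0.02. LIRKO 1 gave a median of 0.00, LIRKO 2 of 0.08 and LIRKO 3 of -0.06, and under median scaling, cyclic loess and quantile normalization it was 0.00, 0.08 and 0.09. *Slc2a2*, which encodes the hepatocyte glucose carrier GLUT2, read 9.99, 9.56 and 10.12 on Flox and 10.26, 9.43 and 9.84 on LIRKO 1, 2 and 3. The arrays of both groups overlapped, and the difference was -0.05 (standard error 0.25, adjusted p = 0.91). Its sign depended on the scaling, since it was 0.37 on LIRKO 1, 0.38 after quantile normalization and 0.51 after cyclic loess (adjusted p = 0.212). *Slc2a1*, the widespread glucose carrier GLUT1, read 6.15, 6.18 and 6.01 on Flox and 6.03, 6.002 and 5.91 on LIRKO, a difference of -0.13 (adjusted p = 0.466). *Slc2a8*, an intracellular glucose carrier, differed by -0.25 (adjusted p = 0.328), *Slc2a5*, the fructose carrier GLUT5, by 0.11 (adjusted p = 0.613), and *Slc5a1*, the intestinal glucose carrier SGLT1, by 0.18 (adjusted p = 0.443) at a Flox level at percentile 4.86 of all probe sets.

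Of the 15 organic anion carriers, 11 (73.3%) were above 0 and 4 below, against 48.3% of all genes above 0. Their median was 0.14 over the 3 LIRKO arrays and -0.02 on LIRKO 1, where 6 were above the Flox mean and 9 below. The groups did not overlap for 5 of the 15 (33.3%, against 26.3% of all genes), of which 2 were higher and 3 lower. None passed, and at an unadjusted p under 0.05, 2 (13.3%) were higher and 3 (20%) lower, against 7.13% and 15.6% of all genes. *Slc22a30*, a member of the organic anion transporter family, read 10.25, 9.70 and 10.32 on Flox and 9.64, 7.81 and 8.61 on LIRKO 1, 2 and 3. The LIRKO arrays were all lower, LIRKO 1 only just, and the difference was -1.40 (standard error 0.44, adjusted p = 0.237) or -0.45 on LIRKO 1. Another probe set annotated to this gene and a near relative together was not used, and signal from close paralogs cannot be told apart. *Slc22a23*, a carrier whose substrate is not known, read 6.63, 6.35 and 6.50 on Flox and 6.15, 5.15 and 5.38 on LIRKO, a difference of -0.94 (standard error 0.26, adjusted p = 0.237). Probe sets in its decile of Flox level had a median difference of 0.11 on LIRKO 2 and 0.08 on LIRKO 3, so that its direction was opposite to theirs.

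*Slc10a2*, the ileal bile acid carrier ASBT, read 4.31, 4.31 and 4.75 on Flox and 4.04, 4.01 and 3.96 on LIRKO, a difference of -0.45 (standard error 0.15, adjusted p = 0.237) at a Flox level at percentile 14.7. Its 3 LIRKO arrays were alike and lay below Flox, with -0.41 on LIRKO 1. *Slc10a6*, a carrier of sulphated steroids, read 6.82, 6.74 and 6.70 on Flox, 6.81 on LIRKO 1 and 7.63 and 7.52 on LIRKO 2 and 3. Only LIRKO 2 and 3 were above the Flox range, for a difference of 0.57 (adjusted p = 0.237). *Slc16a7*, the monocarboxylate carrier MCT2, read 6.44, 6.44 and 6.55 on Flox, 7.30 on LIRKO 1 and 6.56 and 6.74 on LIRKO 2 and 3. The groups met closely between Flox 3 and LIRKO 2, and the difference was 0.39 (standard error 0.20, adjusted p = 0.276). On LIRKO 1, which is 1 array without a replicate, it was 0.82. *Slc16a1*, the lactate and pyruvate carrier MCT1, differed by 0.14 (adjusted p = 0.561). The hepatic uptake carriers *Slco1a1*, *Slco1a4*, *Slco1b2* and *Slc22a7* and the iron exporter *Slc40a1* were not analysed here.

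**Figure D3:**
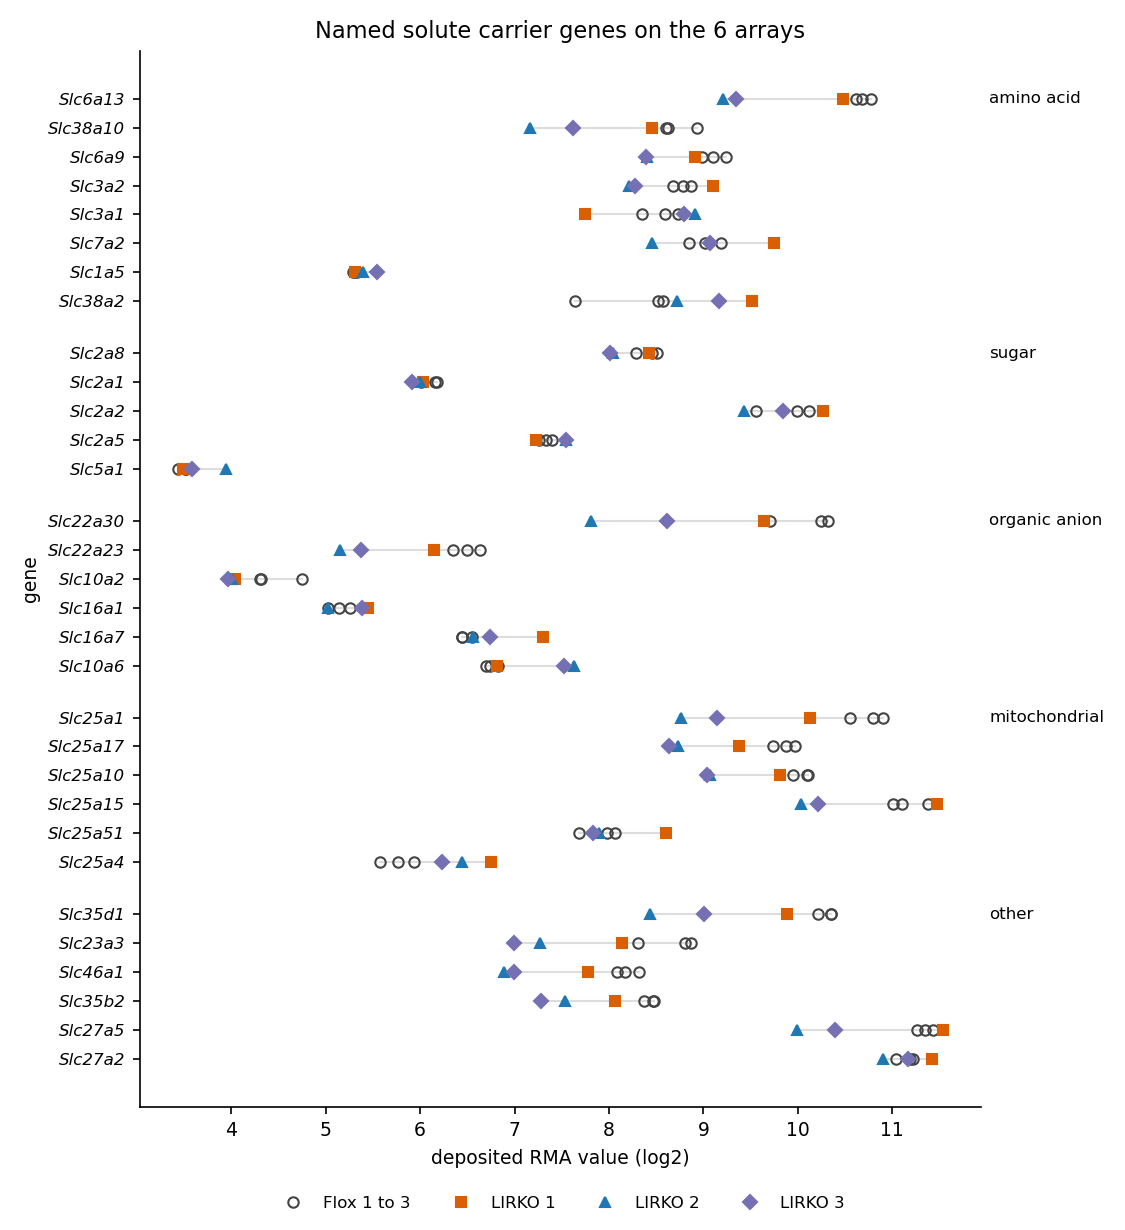
Deposited RMA value (log2, horizontal axis) of 31 solute carrier genes (vertical axis, by substrate class) on each of the 6 arrays; open circles are Flox 1 to 3 and coloured symbols are LIRKO 1, 2 and 3. *Slc25a1* lies below Flox on all 3 LIRKO arrays and *Slc38a2* and *Slc25a4* above, while for *Slc3a1* and *Slc7a2* LIRKO 1 lies away from LIRKO 2 and LIRKO 3.

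Of the 80 other carriers, 40 were above 0 and 40 below, and the 4 with the smallest p all belonged to the 18 carriers of nucleosides, vitamins and nucleotide sugars. These 18 had a median of -0.42, with -0.03 on LIRKO 1, -0.59 on LIRKO 2 and -0.51 on LIRKO 3. *Slc46a1*, the proton-coupled folate carrier, read 8.31, 8.09 and 8.17 on Flox and 7.78, 6.89 and 6.99 on LIRKO, a difference of -0.97 (standard error 0.24, adjusted p = 0.237). *Slc35b2*, which brings the sulphate donor PAPS into the Golgi, read 8.47, 8.47 and 8.37 on Flox and 8.06, 7.54 and 7.28 on LIRKO, a difference of -0.81 (standard error 0.20, adjusted p = 0.237). *Slc35d1*, which brings UDP-glucuronic acid into the endoplasmic reticulum, read 10.36, 10.21 and 10.35 on Flox and 9.89, 8.43 and 9.002 on LIRKO, a difference of -1.20 (standard error 0.34, adjusted p = 0.237). In all 3 every LIRKO array was below every Flox array, with -0.41, -0.38 and -0.42 on LIRKO 1.

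*Slc23a3*, an orphan relative of the ascorbate carriers, had a difference of -1.19 (adjusted p = 0.237) on its brightest probe set and of 0.22 (adjusted p = 0.368) on the other. *Slc35b1*, which brings ATP into the endoplasmic reticulum and was named after its values were seen, had a difference of -1.19 (adjusted p = 0.237) and of -0.31 on LIRKO 1. The 6 genes of the fatty acid class, which takes in the acetyl-CoA carrier *Slc33a1*, named here only for its substrate, had a median of -0.12. Of these *Slc27a5*, the bile acid-CoA ligase of hepatocytes, read 11.43, 11.26 and 11.35 on Flox, 11.53 on LIRKO 1 and 9.995 and 10.39 on LIRKO 2 and 3, a difference of -0.71 (adjusted p = 0.279) and of 0.03 after cyclic loess. *Slc27a2*, a fatty acid carrier and very long-chain acyl-CoA synthetase, differed by 0.01 (adjusted p = 0.964). Its difference depended on the scaling. It was 0.77 after cyclic loess (adjusted p = 0.212) and 0.66 after quantile normalization (adjusted p = 0.226). The 12 carriers of organic cations and amines had a median of 0.18, and on LIRKO 1 it was -0.02. Of these 12, 10 were above 0 (83.3%, against 48.3% of all genes), but on LIRKO 1 only 6 were above the Flox mean and 6 below. None of the 12 lay in the brightest decile of Flox level. The 20 carriers of inorganic ions and the 16 of metals had medians of 0.02 and 0.07.

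Probe sets of the same gene did not always agree. Of the 28 members with several probe sets, 11 had differences on both sides of 0, and in 7 the probe sets were over 0.5 apart. *Slc11a2*, which encodes the iron carrier DMT1, had 0.26 on its brightest probe set (adjusted p = 0.248) and -1.05 on the other (adjusted p = 0.237). *Slc39a4*, a zinc carrier, had 0.32 (adjusted p = 0.304) and -0.53 (adjusted p = 0.237), and *Slc29a1*, the nucleoside carrier ENT1, had -0.85 (adjusted p = 0.245) and 0.62 (adjusted p = 0.309). For *Slc31a1*, the copper carrier CTR1, the probe sets had -1.08 and -0.70 (adjusted p = 0.245 for both). These 4 were chosen after their values were seen.

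Transporters outside the family were read in the same way. Of 35 measured genes of ABC transporters, aquaporins, sodium pump subunits and the mitochondrial pyruvate carrier, none passed in limma, and the median difference was -0.05. At an unadjusted p under 0.05, 3 (8.57%) were higher and 5 (14.3%) lower, near the 7.13% and 15.6% of all genes. By group the medians were -0.07 for 25 ABC transporters, -0.15 for 6 aquaporins and -0.04 for 3 sodium pump subunits, and *Mpc1*, the measured gene of the pyruvate carrier, had 0.31 (adjusted p = 0.272).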

How the data were processed

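Pooled liver RNA was measured on 6 Affymetrix mouse expression arrays, 3 for each genotype. The authors background corrected and normalized them by RMA with the packages affy and limma, whose versions are not given in the sources used here, and the deposited log2 values were used without further scaling. The sources used here do not state if a single run covered all 6 arrays. Of 12488 probe sets, 66 array controls were left out and 12422 were tested without a filter. Gene symbols came from the platform annotation, in which 10833 probe sets carry 1 symbol, 396 several and 1193 none, and all 150 members matched a RefSeq gene (GRCm38.p6) through their Entrez ID.

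The genotypes were compared over all probe sets with limma 3.58.1 (lmFit, then eBayes with default settings) in R 4.3.3, and p-values were adjusted by Benjamini-Hochberg with a threshold of 0.05, the tool and adjustment the study's methods name. The fit was tested on simulated data. Alternatives were other scalings, a filter on dim probe sets, another test, a replicate block and leaving out each array. Classes were described by counts and medians, with no test. Differences on LIRKO 1 are from the mean of the Flox arrays. Arrays have no counts, and their number limits the precision.

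The members, classes, lists and alternatives were chosen with earlier results of these data known. The genes named are the 4 members with the smallest p in each of the 4 classes and among the others, and 20 liver carriers, of which 13 were measured. Genes named beyond this rule are marked in the text. Summaries and plots were made in Python 3.11.15 (pandas 2.3.3, numpy 2.4.6, matplotlib 3.10.9).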

Additional observations from a re-analysis of the deposited data

How the results depend on the processing

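No carrier passed under Bonferroni, cyclic loess, quantile normalization, median scaling, the mean of probe sets, a filter on dim probe sets, variance trend, the methods' t-test or the replicate block. LIRKO 1 alone gave 2 carriers and 90 probe sets, Bonferroni 2 probe sets, cyclic loess 40 and the methods' t-test 0 (9 carriers at an unadjusted p under 0.05), against 16 in limma. Leaving out 1 array gave 0 to 75 carriers and 2 to 6095 probe sets, where the highest of both came without LIRKO 1 and the 5 other omissions gave at most 5 probe sets. Within-group deviations of arrays with the same replicate number correlated at 0.32, 0.40 and 0.09. Arrays with unlike numbers were not compared, so these values cannot decide if the numbers pair the arrays. The replicate block gave 11 probe sets and 46 carriers at an unadjusted p under 0.05, against 36 in limma without it.

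The median of all carriers was -0.0051 on LIRKO 1, 0.026 after cyclic loess, -0.087 with the dim filter, which moved the median of all probe sets to -0.14, and 0.0062 to 0.069 when an array was left out. On LIRKO 1 the medians were 0.0083 for amino acid, -0.015 for organic anion and 0.0089 for mitochondrial carriers. The mitochondrial median was -0.071 after cyclic loess, and the sugar median 0.088 after quantile normalization. With the dim filter the amino acid median was -0.017 and that of the other carriers -0.089, and with an array left out they ran from 0.029 to 0.17 and from 0.00021 to 0.029.

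The sign of some genes turned. On LIRKO 1 the difference was 0.31 for *Slc25a15*, 0.10 for *Slc25a47*, 0.19 for *Slc27a5*, 0.087 for *Slc29a1*, 0.37 for *Slc2a2*, -0.10 for *Slc2a5*, 0.012 for *Slc2a8*, 0.11 for *Slc31a1*, 0.093 for *Slc38a4*, 0.33 for *Slc3a2* and -0.00034 for *Slc5a1*. After cyclic loess it was 0.12 for *Slc25a15*, 0.027 for *Slc27a5*, 0.51 for *Slc2a2*, 0.19 for *Slc3a1* and 0.045 for *Slc3a2*, and after quantile normalization 0.048 for *Slc25a15*, 0.38 for *Slc2a2* and 0.17 for *Slc3a1*. The mean of probe sets gave -0.40 for *Slc11a2* and -0.10 for *Slc39a4*, and median scaling -0.0021 for *Slc27a2*. With 1 array left out, *Slc27a2* ran from -0.12 to 0.14, *Slc2a2* from -0.26 to 0.16, *Slc3a1* from -0.29 to 0.29, *Slc7a2* from -0.25 to 0.40 and *Slc25a51* from -0.045 to 0.34. The cause was not tested. With 3 arrays a group, the number of arrays limits the precision.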

Other observations

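For 20 of the 150 carriers, LIRKO 1 lay beyond the Flox range on 1 side and LIRKO 2 and LIRKO 3 both beyond it on the other (13.3%, against 14.3% of all 8251 genes). In 8 of them LIRKO 1 was above Flox (5.33%, against 8.07%), among them *Slc38a4*, *Slc3a2*, *Slc25a15*, *Slc25a5* and *Slc27a5*. For *Slc25a5* this held on its brightest probe set only. In the other 12 LIRKO 1 was below Flox (8%, against 6.24%), among them *Slc3a1* and *Slc2a5*. All 3 LIRKO arrays lay beyond the Flox range on the same side in 46 carriers. With LIRKO 1 inside the Flox range, LIRKO 2 and LIRKO 3 were both below it in 19 (12.7%, against 12.8% of all genes) and both above it in 26 (17.3%, against 15.4%).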
